A study of Rattus norvegicus with 48 samples.

Results

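Genes of amino acid breakdown and of the urea cycle were followed in the liver of male F344 rats given the sodium salt of phenobarbital (PB) in the diet. The list names genes by function, with no threshold on signal, and was chosen with earlier results of these data known. It holds 44 genes of nitrogen disposal and of the catabolism of individual amino acids, read from the array probesets whose platform annotation carries the gene symbol. Of these, 43 had a probeset, Amdhd1 was not matched, and all 43 passed the filter on low signal (at least 90 on at least 3 arrays) and were listed on all 48 arrays. They were represented by 54 probesets, 51 of them kept, among 31099 probesets and 14217 genes on the array. The groups were PB at 50, 500 and 1000 ppm for 1, 3, 7 and 14 days and controls on the same diet without PB (0 ppm) at the same 4 times, 16 groups of 3 young adult animals with 1 Affymetrix array for each liver. The animals were all on CT1 diet and water without restriction, and the labels name no genetic alteration. Tissue came from the left lateral lobe, so each array reports a mixture of cells, and fewer cells of a type cannot be told apart from less RNA per cell.

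The liver removes the nitrogen of surplus amino acids. Transaminases and glutamate dehydrogenase release it as ammonia and aspartate, the urea cycle of periportal hepatocytes turns it into urea, and the carbon skeletons are passed to glucose, ketone bodies or the citric acid cycle. Many of these genes are hepatocyte-specific and respond to feeding, glucagon and glucocorticoids. PB is the classical activator of the constitutive androstane receptor (CAR), which induces Cyp2b and other genes of drug metabolism.

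As a check of dosing, signals of a probeset shared by Cyp2b2 and Cyp2b1 were 34326 to 53357 at 1000 ppm, 33691 to 56298 at 500 ppm and 22758 to 33497 at 50 ppm, against 3964 to 8267 in controls. Signals are MAS5 intensities on a linear scale with a mean of 500 on each array, and 13506 to 16378 probesets were listed per array. For 7 arrays, all of them at 50 or 500 ppm, the title and the animal number name different groups, and the animal number was followed. The label of each array begins with a number that looks like a date. Arrays sharing that number were taken as 1 run, giving 6 runs, and the labels do not say what it stands for. All 3 arrays at 1000 ppm on day 14 belonged to run 1, which listed a median of 14260 probesets against 15265 to 15978 in the other runs, whereas the controls of day 14 belonged to runs 5 and 6. On days 1, 7 and 14 the 1000 ppm arrays shared no run with the controls of the same day, and on day 3 they shared only run 3, so run and dose cannot be told apart within those days. Averaging over the 4 days brought the runs nearer to balance: adding the run to the model multiplied the variance of the averaged 1000 ppm comparison by 1.02, against 1.52 to 3.98 on single days. Each array is a separate animal, so p-values measure the spread between animals together with that between arrays. All fold changes are log2 values of PB over time-matched controls with their SE, and a gene is called, as having risen or fallen, where the Benjamini-Hochberg adjusted p of limma's moderated test, over all probesets tested, was under 0.05.

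Averaged over the 4 days, 1000 ppm PB changed 11 of the 43 genes, where 14.1% of all 12680 probesets tested were called. Of these 5 rose, against 7.11% of all probesets, and 6 fell, against 7.01%. With quantile normalization 3 rose and 11 fell, beside 1900 of 12680 probesets called. Ddc rose most, Prodh and Gnmt fell most, and none of the 6 urea cycle genes passed the test at any dose averaged over days. The median log2 fold change over the members was -0.016, beside -0.0076 over all probesets tested, with 24 of 43 members and 52.3% of all probesets below 0. At 500 ppm 11 members were called (8.64% of all probesets), 3 higher (4.64%) and 8 lower (3.99%), and with the stricter filter 11, beside 1224 of 11158 probesets. At 50 ppm no member was called (0.149% of all probesets, 19 of 12782), and 5 had an unadjusted p under 0.05. The overall test for any effect of dose (moderated F over the 3 averaged doses) called 11 members, against 14.0% of probesets. These were 9 of the 11 called at 1000 ppm, without Ftcd (adjusted p = 0.150) and Shmt1 (0.0999), together with Kmo (0.0184) and Dmgdh (0.0392). Mat1a, called at 500 ppm, had 0.0596.

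**Figure D1:**
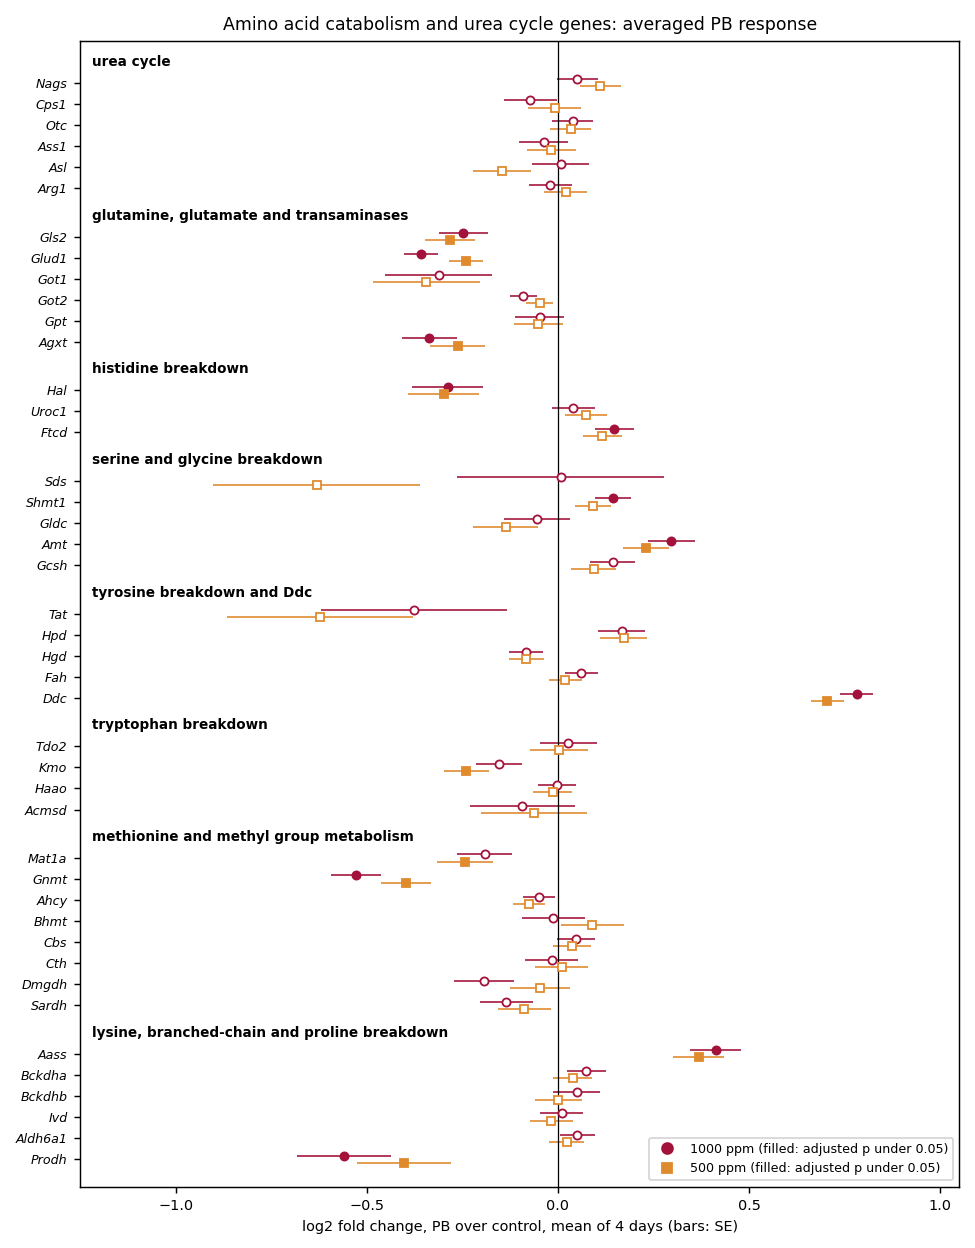
Log2 fold change of PB over time-matched controls, averaged over 4 days, for the 43 members grouped by role (circles 1000 ppm, squares 500 ppm, bars SE, filled where the adjusted p was under 0.05). Ddc lies far to the right at both doses, the urea cycle genes lie close to 0, and Sds and Tat have the widest bars.

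Among the urea cycle enzymes, Cps1 encodes carbamoyl-phosphate synthetase, which takes up ammonia, and Nags makes its activator, N-acetylglutamate. Cps1 had a lowest, median and highest signal of 27978, 33627 and 40640 over the 12 arrays at 1000 ppm, against 29476, 36015 and 45355 over the 12 control arrays. The ranges overlapped, with 2 of the 12 arrays at 1000 ppm below every control and 0 above. The averaged log2 fold change at 1000 ppm was -0.072 ± 0.07 (SE), with a 95% interval of -0.21 to 0.069. For Nags it was 0.05 with an interval of -0.058 to 0.16. Otc, which makes citrulline from carbamoyl phosphate and ornithine, had 0.039. Ass1 and Asl, which join aspartate to citrulline and release arginine, had -0.037 (-0.17 to 0.092) and 0.0074 (-0.14 to 0.16). Arg1, the arginase that releases urea, had -0.02 (-0.13 to 0.093). The intervals of the 6 genes together ran from -0.21 to 0.16. By day, the 1000 ppm arrays overlapped the controls for Cps1, Ass1, Asl and Arg1 on all 4 days, whereas all 3 lay above the controls for Nags on day 7 (3169, 3350 and 3251 at 1000 ppm and 2580, 2735 and 2998 in controls) and for Otc on day 3 (18526, 17819 and 18710 at 1000 ppm and 14652, 16270 and 15450 in controls), neither called. A second Cps1 probeset gave -0.13 (95% interval -0.25 to -0.016) and a second Asl probeset -0.042, neither called. With quantile normalization, which moved the median of all probesets to -0.048, Cps1 (-0.16, adjusted p = 0.00164) and Ass1 (-0.12, adjusted p = 0.0260) were called as lower. That setting also called Ass1 as lower at 500 ppm over 4 days (-0.12, adjusted p = 0.0384) and at 1000 ppm on day 14 (-0.30, adjusted p = 0.0144), and Cps1 at 1000 ppm on day 3 (-0.26, adjusted p = 0.0375). Without it, at 500 ppm the 6 averaged values lay between -0.15 and 0.11.

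**Figure D2:**
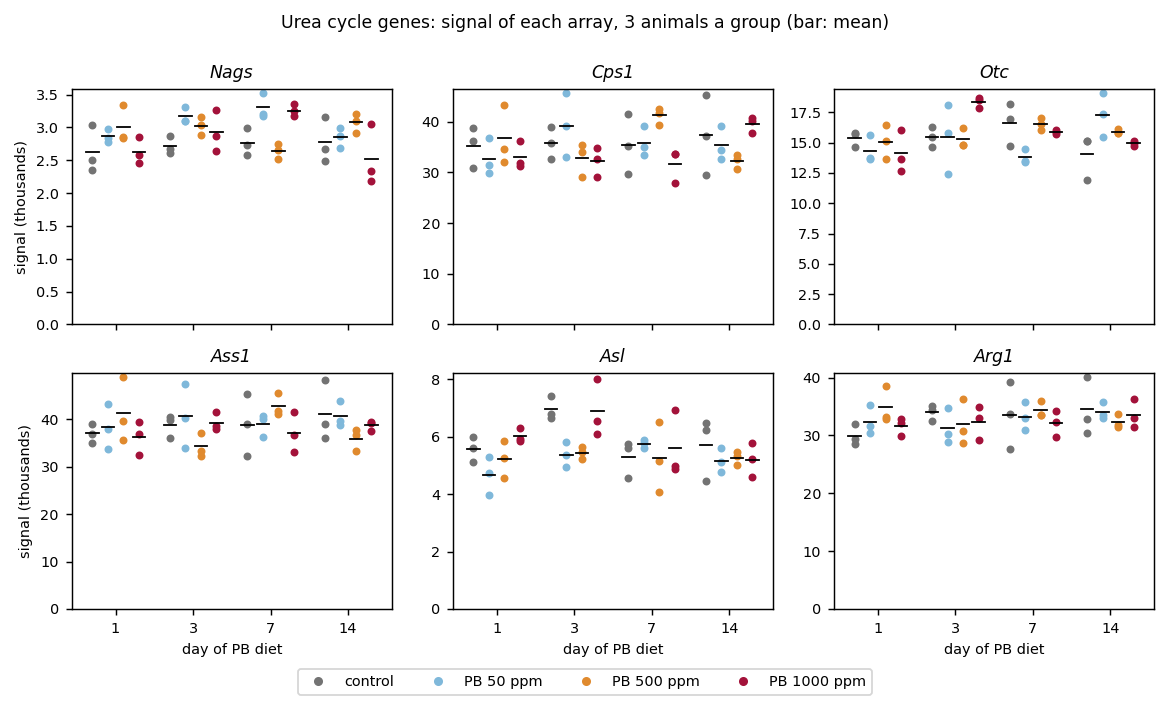
Signal of every array for the 6 urea cycle genes against day (axis in units of 1000), with dose rising from left to right within a day (3 animals a group, bar at the mean, axis from 0). At 1000 ppm the arrays overlap the controls of the same day except for Nags on day 7 and Otc on day 3, where all 3 lie above.

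Ddc, aromatic L-amino acid decarboxylase, which makes dopamine from L-DOPA and serotonin from 5-hydroxytryptophan, was the member with the largest rise. Its lowest, median and highest signals were 7345, 9339 and 10006 at 1000 ppm, 7031, 8772 and 10282 at 500 ppm and 5085, 5729 and 6962 at 50 ppm, against 4159, 5128 and 6220 in controls. All 12 arrays at 1000 ppm and all 12 at 500 ppm lay above the highest control, as did 5 of 12 at 50 ppm. The averaged log2 fold change was 0.78 ± 0.044 (SE, 1.72-fold, adjusted p = 5.55e-16) at 1000 ppm. At 500 ppm it was 0.70 ± 0.044 (adjusted p = 1.45e-14). At 50 ppm it was 0.19, with an adjusted p of 0.0590 from limma, just short of the threshold. The difference between 1000 and 500 ppm was 0.077 (95% interval -0.012 to 0.17). On day 14 the signals were 9817, 9027 and 9824 at 1000 ppm and 4159, 4780 and 4756 in controls, and on day 1 they were 7606, 7854 and 7345 at 1000 ppm and 5163, 5980 and 5137 in controls. The groups did not overlap on any of the 4 days, and the log2 fold changes were 0.49, 0.69, 0.88 and 1.07 on days 1, 3, 7 and 14. Of 2 probesets for Ddc 1 passed the signal filter, and control signals themselves were -0.25 on the log2 scale on day 14 relative to day 1, not called.

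The tyrosine breakdown genes Hpd, Hgd, Fah and Tat did not pass the test averaged over days. Hpd, the 4-hydroxyphenylpyruvate dioxygenase, had 0.17 ± 0.062 at 1000 ppm (adjusted p = 0.0660, limma), and 0.18 (adjusted p = 0.0435) with the run in the model, which is past the threshold. Hgd and Fah, the next dioxygenase and the last enzyme of the pathway, had -0.084 and 0.061. Tat, tyrosine aminotransferase, the entry step and a glucocorticoid-responsive gene, had -0.38 with a 95% interval of -0.87 to 0.12. Its signals at 1000 ppm were 2954, 7551 and 13040 (lowest, median, highest), against 3307, 9860 and 15896 in controls, and the control arrays alone spanned a 4.81-fold range. The lowest array at 1000 ppm lay just below the lowest control, and the other 11 lay inside the control range.

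Aass, which carries the entry steps of lysine breakdown, rose. Its lowest, median and highest signals were 10422, 13790 and 18413 at 1000 ppm and 11546, 13622 and 14988 at 500 ppm, against 8821, 10591 and 12571 in controls. The highest control lay below 9 of 12 arrays at 1000 ppm and 10 of 12 at 500 ppm. The log2 fold change was 0.41 ± 0.066 (SE, adjusted p = 2.07e-05) at 1000 ppm and 0.37 ± 0.066 (adjusted p = 2.09e-04) at 500 ppm. By day it was 0.49, 0.56 and 0.54 on days 1, 3 and 7, all called, and 0.055 on day 14. The day 1 call was lost without control replicate 2 or 3 or PB replicate 2 or 3 (values down to 0.32, adjusted p up to 0.287), the day 3 call without PB replicate 3 (0.43, adjusted p = 0.121), and the day 7 call without control replicate 1 or 2 or PB replicate 2 or 3 (down to 0.43, adjusted p up to 0.163). On day 14 the signals were 12758, 12488 and 12301 at 1000 ppm and 11622, 11968 and 12571 in controls, and the groups overlapped. The difference between the day 14 and day 1 responses was -0.44 and not called (adjusted p = 0.236). Prodh, proline dehydrogenase, the entry step of proline oxidation, fell. Its signals were 1256, 2087 and 2375 at 1000 ppm, 1635, 2099 and 3386 at 500 ppm and 1553, 2992 and 3819 in controls (lowest, median, highest). The ranges overlapped, and 3 of 12 arrays at 1000 ppm lay below every control. Its log2 fold change was -0.56 ± 0.12 (adjusted p = 0.00133) at 1000 ppm and -0.40 ± 0.12 (adjusted p = 0.0332) at 500 ppm, and it was below 0 on all 4 days at 1000 ppm. The 500 ppm call was lost without any 1 of 13 arrays (adjusted p up to 0.0773), with groups by title (-0.35, adjusted p = 0.0859) and with the 7 arrays of unclear group left out (-0.29, adjusted p = 0.188), whereas the 1000 ppm call was kept without each of the 48. The branched-chain genes Bckdha, Bckdhb, Ivd and Aldh6a1 (subunits of the branched-chain keto acid dehydrogenase, isovaleryl-CoA dehydrogenase and methylmalonate semialdehyde dehydrogenase) had 0.075, 0.049, 0.0094 and 0.05, and none was called.

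**Figure D3:**
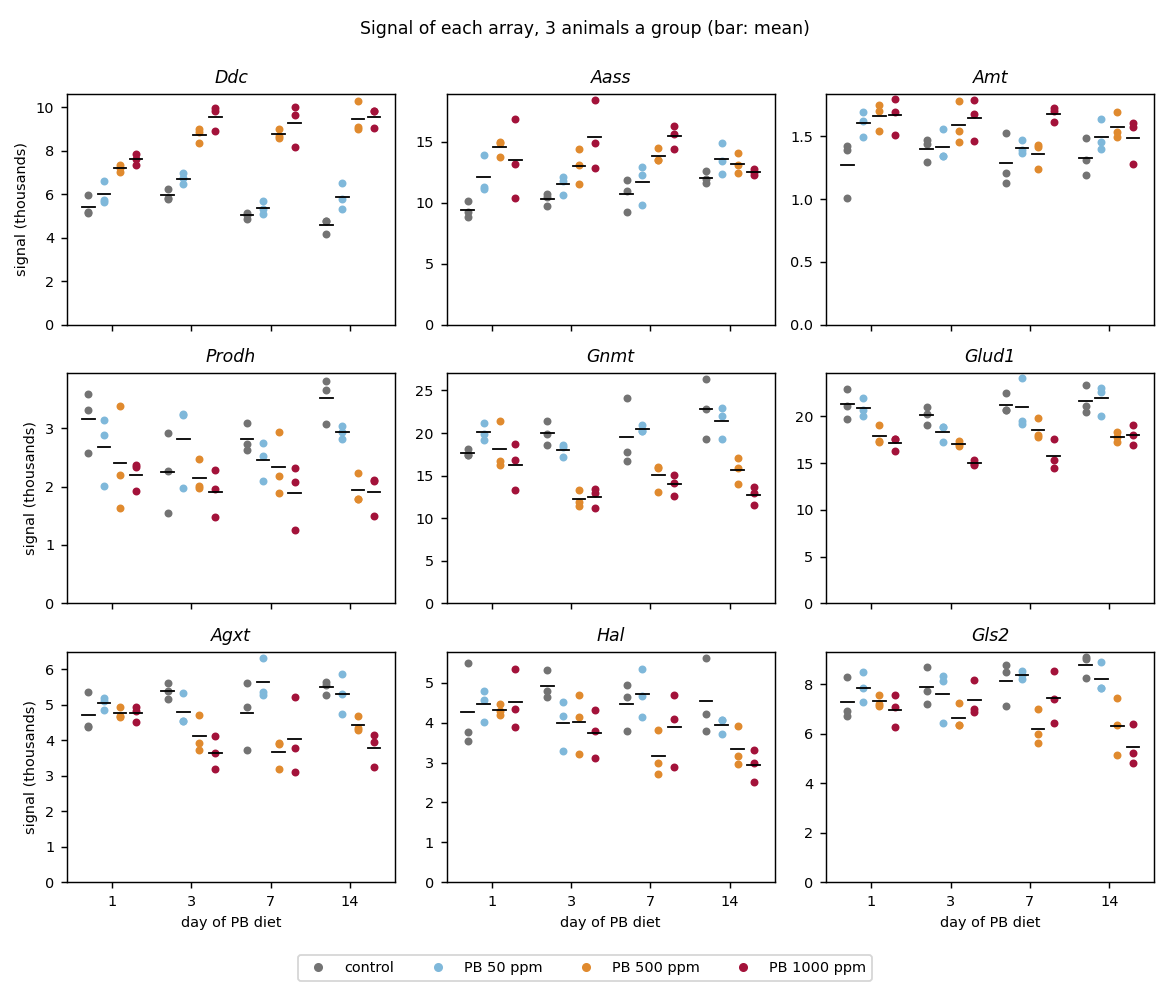
Signal of every array (axis in units of 1000) for 9 called members against day, with dose rising from left to right within a day (3 animals a group, bar at the mean, axis from 0). Ddc separates from controls at 500 and 1000 ppm on every day, and Gnmt at 1000 ppm lies below all controls of the same day from day 3.

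Of the 6 genes of glutamine, glutamate and the transaminases, 3 fell and 0 rose. Glud1, glutamate dehydrogenase, which releases ammonia from glutamate in mitochondria, had signals of 14487, 16580 and 19044 (lowest, median, highest) at 1000 ppm and 16852, 17573 and 19768 at 500 ppm, against 19039, 20834 and 23326 in controls. The lowest control lay above 11 of 12 arrays at 1000 ppm and 11 of 12 at 500 ppm. Its log2 fold change was -0.36 ± 0.044 (adjusted p = 1.56e-07) at 1000 ppm and -0.24 ± 0.044 (adjusted p = 2.39e-04) at 500 ppm, and a second probeset for the gene gave -0.43 ± 0.043 at 1000 ppm (adjusted p = 1.45e-09, limma). Agxt, alanine-glyoxylate aminotransferase, which removes glyoxylate in peroxisomes, had 3107, 4039 and 5214 at 1000 ppm and 3723, 5316 and 5653 in controls, overlapping ranges with 4 arrays below every control. Its log2 fold change was -0.34 ± 0.072 (adjusted p = 9.48e-04). At 500 ppm it was -0.26 ± 0.072 (adjusted p = 0.0159), and without the arrays of run 1 that call was lost (adjusted p = 0.0700), as were those of Hal, Mat1a and Kmo. It was also lost with groups by title (-0.21, adjusted p = 0.101). Gls2, the liver glutaminase, had 4819, 6953 and 8524 at 1000 ppm and 6711, 8264 and 9097 in controls, and 5 arrays lay below every control. It fell by 0.25 ± 0.065 on the log2 scale at 1000 ppm (adjusted p = 0.00781) and by 0.28 ± 0.065 at 500 ppm (adjusted p = 0.00367). At 1000 ppm its arrays overlapped the controls on days 1, 3 and 7. They lay below all controls of the day only on day 14 (-0.69), where the 1000 ppm group lies wholly in run 1. Got1 and Got2, the cytosolic and mitochondrial aspartate aminotransferases, had -0.31 (-0.60 to -0.028) and -0.09 (-0.16 to -0.019) at 1000 ppm, and Gpt, alanine aminotransferase, had -0.048 (-0.18 to 0.083). None of these 3 was called.

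In methionine and methyl group metabolism 1 of 8 genes fell and none rose at 1000 ppm. Gnmt, glycine N-methyltransferase, which uses S-adenosylmethionine to methylate glycine, had 11192, 13403 and 18681 at 1000 ppm and 11395, 15862 and 21403 at 500 ppm (lowest, median, highest), against 16696, 18984 and 26287 in controls. Of 12 arrays at 1000 ppm, 10 were below the lowest control, and at 500 ppm 9 were. Its log2 fold change was -0.53 ± 0.066 (adjusted p = 2.01e-07) at 1000 ppm and -0.40 ± 0.066 (adjusted p = 5.75e-05) at 500 ppm, and 0.0096 at 50 ppm. Mat1a, which makes S-adenosylmethionine in hepatocytes, fell at 500 ppm (-0.24 ± 0.072, adjusted p = 0.0285), and had -0.19 (adjusted p = 0.0705) at 1000 ppm. Its signals at 500 ppm were 16288, 18466 and 25362 (lowest, median, highest), against 18719, 22972 and 28054 in controls, overlapping ranges with 7 arrays below every control, and without any 1 of 7 arrays the call was lost (adjusted p up to 0.0705), as it was with the 7 arrays of unclear group left out (-0.25, adjusted p = 0.0564). Ahcy, Bhmt, Cbs, Cth, Dmgdh and Sardh, which handle homocysteine, cysteine and the demethylation of betaine products, ranged from -0.19 (Dmgdh) to 0.046 (Cbs) at 1000 ppm. Dmgdh, dimethylglycine dehydrogenase, was called in the overall test of dose alone. The 2 Sardh probesets differed in sign (-0.13 and 0.087), neither called. In serine and glycine breakdown 2 of 5 rose. Amt, the aminomethyltransferase of the glycine cleavage system, had 1278, 1643 and 1795 at 1000 ppm and 1011, 1351 and 1525 in controls, with 9 of 12 arrays above every control. The log2 fold change was 0.30 ± 0.061 (adjusted p = 6.94e-04), and 0.23 ± 0.061 at 500 ppm (adjusted p = 0.0132). Gldc and Gcsh, other parts of that system, had -0.054 and 0.14 and were not called. Shmt1, cytosolic serine hydroxymethyltransferase, had 3118, 3700 and 4308 at 1000 ppm and 3054, 3366 and 3798 in controls, overlapping ranges, and rose by 0.14 ± 0.047 (adjusted p = 0.0348). That call was lost without any 1 of 10 arrays (adjusted p up to 0.0799). Sds, serine dehydratase, a gluconeogenic enzyme, had 0.0073 ± 0.27 at 1000 ppm and -0.63 ± 0.27 at 500 ppm, not called.

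Of the 3 histidine breakdown genes with a probeset, Hal, the histidase that opens the pathway, fell and Ftcd, the folate-dependent last enzyme, rose. Hal had 2503, 3837 and 5336 at 1000 ppm and 3536, 4645 and 5621 in controls (lowest, median, highest), overlapping ranges, and a log2 fold change of -0.29 ± 0.092 (adjusted p = 0.0316). At 500 ppm it was -0.30 ± 0.092 (adjusted p = 0.0364), a call lost without any 1 of 12 arrays (adjusted p up to 0.0827) and with groups by title (-0.30, adjusted p = 0.0513). Ftcd had 15422, 17188 and 18969 at 1000 ppm and 13790, 15618 and 18852 in controls, also overlapping, with a log2 fold change of 0.15 ± 0.051 (adjusted p = 0.0479). Both were lost with the run in the model (adjusted p = 0.0536 for Hal and 0.0576 for Ftcd, limma). Hal was lost without any 1 of 8 arrays (adjusted p up to 0.0763), and Ftcd without any 1 of 32 (up to 0.114). Uroc1, urocanase, had 0.04. None of the 4 tryptophan genes was called at 1000 ppm. Tdo2, the dioxygenase that opens the pathway, had 0.027, Haao, which makes the precursor of quinolinate, had -0.0032, and Acmsd, which diverts carbon from NAD synthesis, had -0.093. Kmo, kynurenine monooxygenase, fell at 500 ppm (-0.24 ± 0.06, adjusted p = 0.00737), where its signals were 2423, 3134 and 3903, against 3309, 3690 and 4168 in controls, and 8 of 12 arrays were below every control. At 1000 ppm its value was -0.15 (adjusted p = 0.0795), and the difference between 1000 and 500 ppm was 0.085 (95% interval -0.036 to 0.21, not called).

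No member was called between 1000 and 500 ppm (0% of 12396 probesets were called by limma), although 3 members and 712 probesets had an unadjusted p under 0.05. The member differences ran from -0.16 (Prodh) to 0.64 (Sds), and Sds had an interval of 0.089 to 1.19. Both doses are compared with the same controls.

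The 4 members with the widest spread between animals of a group were Sds, Tat, Got1 and Acmsd. Their within-group SD on the log2 scale was 0.69, 0.62, 0.35 and 0.35, against a median of 0.145 over the 43 members and 0.063 for Got2, the lowest. Sds alone spanned 945 to 5397 in the 12 control arrays, a 5.71-fold range, and 968 to 5676 at 1000 ppm. At 1000 ppm the 95% interval was -0.54 to 0.56 for Sds, -0.87 to 0.12 for Tat, -0.60 to -0.028 for Got1 and -0.37 to 0.19 for Acmsd, wider than that of any urea cycle gene.

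**Figure D4:**
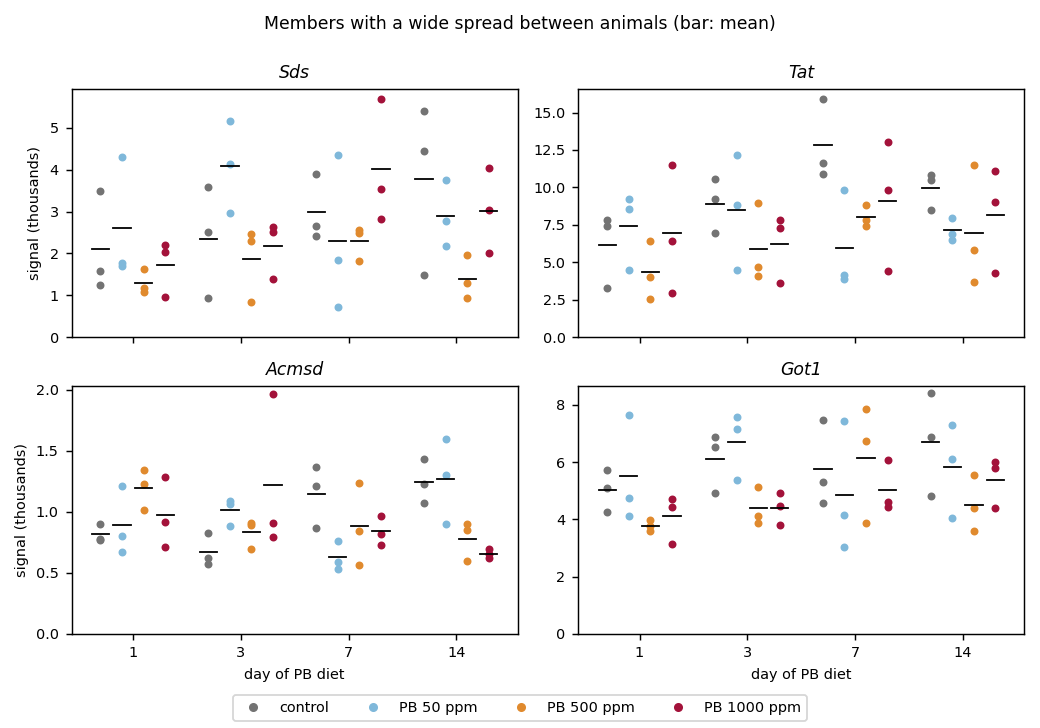
Signal of every array (axis in units of 1000) for Sds, Tat, Acmsd and Got1 against day, with dose rising from left to right within a day (3 animals a group, bar at the mean, axis from 0). Animals of a single group differ widely, and 1 array at 1000 ppm on day 3 has an Acmsd signal of 1960 while the other 2 are at 911 and 795.

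By day, 1000 ppm PB called 3 members on day 1 (2.46% of all probesets), 5 on day 3 (4.01%), 3 on day 7 (1.86%) and 6 on day 14 (3.45%). Ddc was called on all 4 days. With the run as a block no member was called on day 1, where Ddc had 0.62 (adjusted p = 0.296), and on day 7 Ddc alone was. Over all probesets the block left 6 of 13068 called on day 1 and 13 of 13348 on day 7. On day 3 the block left 4 of 5 calls, beside 408 of 13956 probesets, and Glud1 had -0.38 (adjusted p = 0.0568) with it. On day 7 Glud1 had -0.59 (adjusted p = 0.340) with the block. Run 3 held 1 array at 1000 ppm and 1 control array of day 3. There Ddc had 8908 at 1000 ppm and 5810 in the control, Glud1 had 15297 at 1000 ppm and 19039 in the control, and Gnmt had 13470 at 1000 ppm and 21460 in the control. Glud1 was called on days 1, 3 and 7 (-0.31, -0.42 and -0.43) and had -0.27 on day 14 (adjusted p = 0.0802). Its signals on day 3 were 14940, 14742 and 15297 at 1000 ppm and 20244, 21014 and 19039 in controls, and the groups did not overlap on any day. The day 1 call was lost without any 1 of 29 arrays (adjusted p up to 0.232), and the day 7 call without PB replicate 1 (-0.37, adjusted p = 0.0513). Gnmt had -0.13 on day 1, -0.68 on day 3 (adjusted p = 0.00114), -0.47 on day 7 and -0.84 on day 14 (adjusted p = 8.08e-05). On day 14 its signals were 12919, 11535 and 13624 at 1000 ppm and 22829, 19342 and 26287 in controls, with no overlap. Agxt was called on days 3 and 14 (-0.57 and -0.55). On day 14 its signals were 3961, 4155 and 3232 at 1000 ppm and 5653, 5566 and 5270 in controls, again without overlap. Its day 3 call was lost without control replicate 3 or PB replicate 2 or 3 (adjusted p up to 0.0972), and its day 14 call without any of the 3 controls or PB replicate 3 (up to 0.141).

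On day 14 alone, Gls2, Prodh and Gpt were also called. Gls2 had 6405, 4819 and 5205 at 1000 ppm and 8253, 9040 and 9097 in controls, a log2 fold change of -0.69 ± 0.13 (adjusted p = 0.00113). Prodh had 2100, 1498 and 2112 at 1000 ppm and 3067, 3650 and 3819 in controls, a log2 fold change of -0.90 ± 0.25 (adjusted p = 0.0311). The groups did not overlap for either gene. Gpt had 6098, 4900 and 5280 at 1000 ppm and 7861, 7476 and 7706 in controls on day 14, a log2 fold change of -0.51 ± 0.13 (adjusted p = 0.0198), and 7273, 5492 and 5978 at 1000 ppm and 6087, 5382 and 4724 in controls on day 1, overlapping groups with a log2 fold change of 0.21. Without control replicate 1 or 3 or PB replicate 2 or 3 of day 14 the Gpt call was lost (adjusted p up to 0.101), and without control replicate 2 or 3 or any PB array of that day the Prodh call was lost (up to 0.154). Acmsd had 693, 621 and 652 at 1000 ppm and 1428, 1229 and 1074 in controls on day 14, a log2 fold change of -0.92 that was not called (adjusted p = 0.0558). On that day 30 of the 43 members and 47.2% of all probesets tested had a log2 fold change below 0. The member median was -0.13, beside 0.017 over all probesets tested. In controls alone the member median of day 14 relative to day 1 was 0.13. That control shift mixes day with run, and its part in the day 14 values was not tested. With the run as a block 2 members were called on day 14, Ddc (1.03) and Gnmt (-0.85), beside 67 of 13348 probesets, and the part of run 1 in the day 14 values was not tested otherwise, because that group lies wholly in run 1. With quantile normalization, which moved the median of all probesets on day 14 to -0.18, 14 members were called, 1 higher and 13 lower, beside 1272 of 13523 probesets (467 without it), and the median of the 43 was -0.23.

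**Figure D5:**
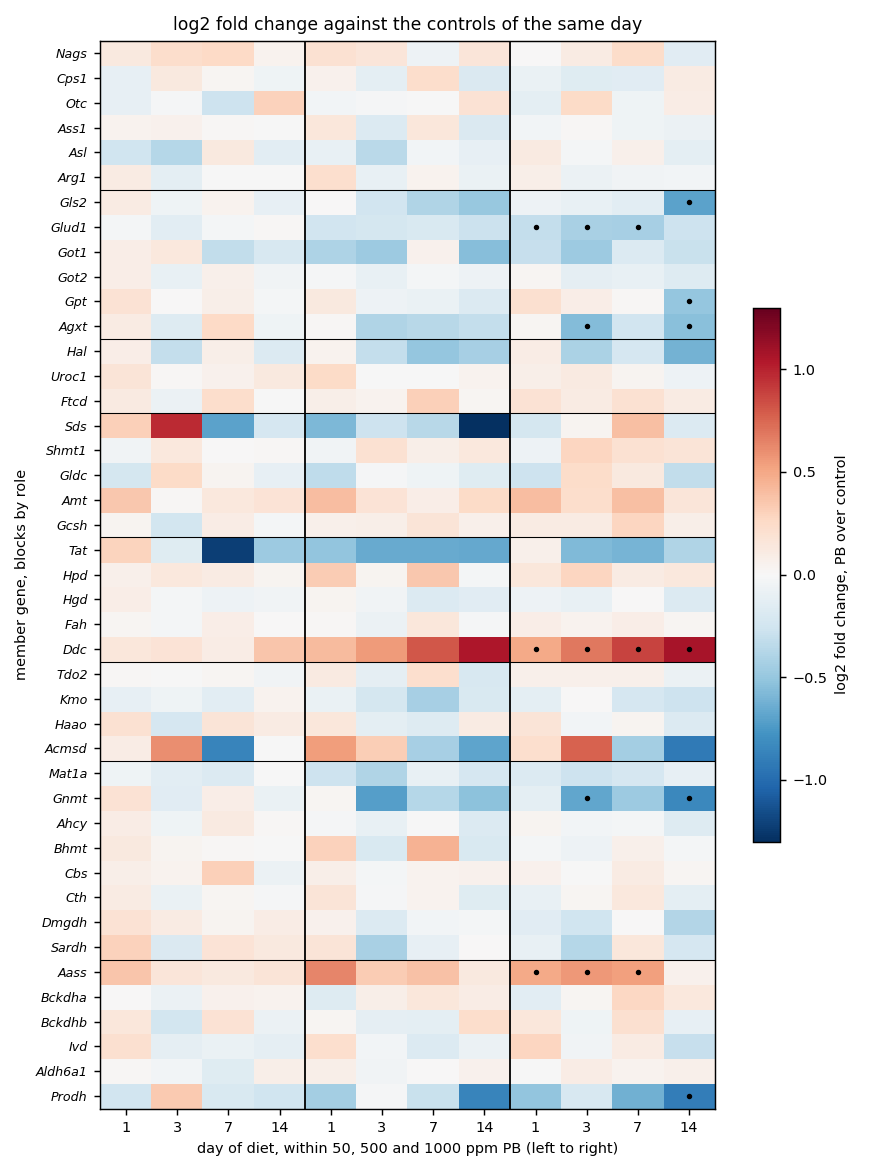
Log2 fold change of PB over the controls of the same day for the 43 members (blocks by role) at 50, 500 and 1000 ppm, days 1 to 14 within each dose (red higher, blue lower, dots at 1000 ppm only, adjusted p under 0.05). Ddc is red at 500 and 1000 ppm throughout, and Gls2, Hal, Gnmt and Prodh are at their lowest for 1000 ppm on day 14.

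The response to 1000 ppm differed between day 14 and day 1 for 2 members (1.02% of all probesets). For Ddc the difference was 0.58 ± 0.12 (adjusted p = 0.0165) and for Gpt it was -0.72 ± 0.18 (adjusted p = 0.0436). Gnmt was just outside the threshold at -0.71 (adjusted p = 0.0503). With the run as a block neither Ddc nor Gpt was called (adjusted p = 0.763 for Ddc and 0.563 for Gpt, limma), beside 1 of 12531 probesets, and with groups by title neither was (0.117 for Ddc and 0.0980 for Gpt). The Gpt difference was also lost without any 1 of 9 arrays of its 4 groups (adjusted p up to 0.125). In controls alone, 38 of the 43 members had higher mean log2 signals on day 14 than on day 1. Of all probesets, 54.8% had lower ones. The member median was 0.13, beside -0.023 over all probesets, and Gpt had 0.52 (adjusted p = 0.0831). None of the members was called in that comparison (0.149% of probesets, 21 of 14076), and 9 had an unadjusted p under 0.05. All members are read from the same few animals, so the 38 are not separate observations of a change with time. Most controls of day 1 belonged to run 1, which held no control of day 14, so time and run are largely mixed there. With the run as a block the member median was 0.095, beside -0.012 over all probesets, and no member was called.

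Genes of the same pathways that are not on the list were examined as a list of 74, of which 60 could be tested at 1000 ppm over 4 days. Of these 6 rose and 11 fell, with a median of 0.010. Of all probesets 7.11% rose and 7.01% fell in this comparison, which is also that of the lists that follow. The falls were led by Oat, ornithine aminotransferase (-0.96 ± 0.13, adjusted p = 1.67e-06), and Glul, glutamine synthetase (-0.86 ± 0.077, adjusted p = 1.55e-10). The mitochondrial alanine aminotransferase Gpt2 (-0.43) and choline dehydrogenase Chdh (-0.30) followed, with Aadat, Kynu and Prodh2 (-0.25, -0.22 and -0.21) of lysine, tryptophan and hydroxyproline handling. The rises included Hibch of valine breakdown (0.46), the sulfur dioxygenase Ethe1 (0.42), Gcat of threonine breakdown (0.30), Dhtkd1 of lysine breakdown (0.23) and the kynurenine aminotransferase Kyat1 (0.22). Of 8 amino acid transporters tested, Slc3a2 (0.59), the heavy chain of heteromeric transporters, and Slc43a1 (0.40), a carrier of neutral amino acids, rose. The 4 that fell included Slc6a13 (-0.51), which carries GABA and taurine, and Slc38a2 (-0.43), a sodium-coupled neutral carrier. Of 12 regulators and hormone-responsive genes tested, none rose, and Igfbp1, a gene held down by insulin, fell by 1.49 on the log2 scale (adjusted p = 4.07e-04). The liver transcription factors Hnf4a and Cebpa also fell, with -0.24 and -0.24. Each was read from the brightest of its kept probesets (3 for Hnf4a and 5 for Cebpa), and the others were not compared.

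Glul and Oat also mark hepatocytes around the central vein. Of 9 perivenous markers 5 were tested and 3 fell (Oat, Glul and Cyp1a2, the last by 0.52). The sum of the 4 listed on all arrays was 49995 to 67791 at 1000 ppm, 51009 to 71908 at 500 ppm and 63892 to 80863 at 50 ppm, against 57658 to 93569 in controls. None of the 7 general hepatocyte markers tested was called, and their sum was 284301 to 409298 at 1000 ppm and 271038 to 443567 in controls. Of 5 macrophage markers, Cd5l (-0.34) and Csf1r (-0.23) fell, with sums of 9767 to 15354 at 1000 ppm and 10384 to 18607 in controls. Of 6 bile duct markers 2 were kept, and Epcam, the 1 tested, rose by 0.53, with signals of 484 to 1094 at 1000 ppm and 401 to 711 in controls. None of 4 endothelial, 5 stellate and 3 red cell markers tested was called. Their sums were 5968 to 8761 at 1000 ppm and 2968 to 8649 in controls for endothelial cells, 7668 to 10640 at 1000 ppm and 8390 to 11893 in controls for stellate cells, and 24662 to 32796 at 1000 ppm and 21911 to 32722 in controls for red cells. The part of these cell types in the member changes was not tested.

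Promoter sequence is shown for members that rose (Aass and Amt) and that fell (Gnmt and Glud1), to place beside the opposite changes the bases around each start. RefSeq promoters on the rat build GRCr8, 300 bases each, were found for 35 of the 44 genes (40 starts). Capitals mark the letters AGGTCA (the nuclear receptor half-site), TGACG (the core of the cAMP response element) and TATAAA on either strand. Ddc has 3 starts in the table, and the array does not show which was used, so none of them is printed.
Aass, chr4:52628762-52629061, minus strand: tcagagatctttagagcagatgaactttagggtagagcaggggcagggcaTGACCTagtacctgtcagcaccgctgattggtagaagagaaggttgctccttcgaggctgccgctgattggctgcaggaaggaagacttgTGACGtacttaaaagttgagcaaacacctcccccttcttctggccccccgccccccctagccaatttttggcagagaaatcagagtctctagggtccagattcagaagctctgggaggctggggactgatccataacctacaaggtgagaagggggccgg
Amt, chr8:117860187-117860486, plus strand: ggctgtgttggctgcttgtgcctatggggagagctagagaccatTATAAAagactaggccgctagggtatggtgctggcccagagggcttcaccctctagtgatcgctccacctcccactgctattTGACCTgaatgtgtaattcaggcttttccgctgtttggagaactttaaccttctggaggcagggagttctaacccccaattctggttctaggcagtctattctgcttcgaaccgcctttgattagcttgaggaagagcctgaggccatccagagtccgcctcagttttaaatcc
Gnmt, chr9:21752032-21752331, plus strand: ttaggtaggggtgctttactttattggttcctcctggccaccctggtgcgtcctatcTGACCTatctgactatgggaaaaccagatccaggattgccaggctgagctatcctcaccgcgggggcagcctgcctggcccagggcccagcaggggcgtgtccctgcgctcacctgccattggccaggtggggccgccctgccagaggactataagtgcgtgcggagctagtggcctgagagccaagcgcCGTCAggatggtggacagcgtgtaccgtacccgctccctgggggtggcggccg
Glud1, chr16:9646319-9646618, plus strand: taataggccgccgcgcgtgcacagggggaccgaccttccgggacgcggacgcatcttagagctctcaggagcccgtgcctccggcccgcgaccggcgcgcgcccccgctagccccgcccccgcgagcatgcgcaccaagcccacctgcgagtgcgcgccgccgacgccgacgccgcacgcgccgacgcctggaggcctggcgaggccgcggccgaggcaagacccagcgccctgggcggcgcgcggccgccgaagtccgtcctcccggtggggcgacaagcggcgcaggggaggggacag
AGGTCA was present at 13 of the 40 member starts and in 16.2% of all 33469 promoters of the table. TGACG was present at 5 of 40 against 21.2%, and TATAAA at 6 of 40 against 14.2%. Aass and Amt, which rose, and Gnmt, which fell, each had 1 AGGTCA. Aass and Gnmt also had 1 TGACG each and Amt had 1 TATAAA, whereas the Glud1 window held none of the 3 motifs. A match describes these letters only and is not a binding site.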

How the data were processed

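Liver RNA of 48 rats was hybridised by the authors to Affymetrix RG-230 v2 arrays, 1 array for each animal, and the deposited values are MAS5 intensities on a linear scale, scaled by the authors to a mean of 500 on each array. Where the deposited table holds the word Null in place of a signal, which the sources used here do not explain, the value was treated as missing. Arrays were placed by the animal number in the labels. Of 31099 probesets, the 18073 that reached 90 on no fewer than 3 arrays were kept. A linear model on the log2 scale gave each of the 16 groups its own mean over all 48 arrays, and variances were moderated by limma (3.58.1, in R 4.3.3). The p-values come from tests with these moderated variances and were adjusted by Benjamini-Hochberg over all probesets tested in a comparison (0.05). The exception was the methods' 2-way analysis of variance, an unmoderated F test adjusted over the probesets that passed its fold filter. A comparison was tested where each of its groups held at least 2 listed signals. A gene was read from its brightest probeset annotated to it alone (20826 probesets named 1 gene, 436 several and 9780 none). The fit was checked on simulated data. Tables and figures were made with Python 3.11.15, pandas 2.3.3 and matplotlib 3.10.9. The arrays listed 13506 to 16378 probesets (median 15337), and the 3 arrays in each group limit the precision. The comparisons of the 3 doses share their controls. Named members were those called at 1000 ppm over 4 days and up to 4 further called members in each other comparison, by size of change. Genes of the other lists were named where called at 1000 ppm, up to 12 of the pathway, 4 transporters and 4 regulators, and other members were given values by role. The members and lists were chosen with earlier results of these data known. Alternatives were groups by title, the 7 arrays left out, quantile and median normalization, the run or the replicate number as a block, no filter and a stricter filter, the mean of a gene's probesets, the methods' 2-way analysis of variance, each array left out in turn and, chosen after seeing the data, the arrays of run 1 left out. Arrays at 1000 ppm and in controls with the same replicate number in the title were compared by their deviations from the group means. Their correlations were -0.11 to 0.30, and only that of number 2 on day 1 was below 0. Whether the replicate numbers pair animals was not tested further.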

Additional observations from a re-analysis of the deposited data

Results flagged for a closer look

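The response of 2 genes to 1000 ppm PB differed between day 14 and day 1 in a test of the difference itself. For Ddc the day 14 response minus the day 1 response was 0.578 on the log2 scale (adjusted p = 0.0165, limma), with group means of 9556 ± 458 at 1000 ppm and 4565 ± 352 in controls on day 14, and 7602 ± 255 at 1000 ppm and 5426 ± 479 in controls on day 1 (SD, n = 3 each). All 3 arrays at 1000 ppm were above all 3 controls on both days. Control Ddc signal on day 14 was -0.25 relative to day 1 on the log2 scale (adjusted p = 0.272).

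For Gpt the difference was -0.716 (adjusted p = 0.0436, limma), with 5426 ± 612 at 1000 ppm and 7681 ± 194 in controls on day 14, and 6247 ± 921 at 1000 ppm and 5398 ± 682 in controls on day 1 (SD, n = 3 each). All 3 arrays at 1000 ppm were below all 3 controls on day 14, and the groups overlapped on day 1. Adding the run to the model gave differences of 0.41 for Ddc (adjusted p = 0.763) and -0.99 for Gpt (adjusted p = 0.563). All 3 arrays at 1000 ppm on day 14 and 2 of 3 controls on day 1 belonged to run 1, and the part of the run in these differences was not tested beyond that block.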

How the results depend on the processing

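At 1000 ppm over 4 days, Ddc, Aass, Amt, Prodh, Gnmt, Glud1, Agxt and Gls2 kept their direction and their call under every alternative that could be fitted, including each of the 48 arrays left out, whereas Ftcd, Shmt1 and Hal lost theirs under some. No called member changed direction in any comparison. Without the arrays of run 1 the 1000 ppm average, day 14 at 1000 ppm and the response difference could not be fitted, since the 1000 ppm group of day 14 lies in run 1. The number of arrays, 3 a group, limits what single days can show.

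Counts of called members that differed by more than 1.5 times were as follows. With groups by title, 1 member was called on day 1 (3 otherwise) and 0 in the response difference (2 otherwise), beside 169 and 31 of all probesets (343 and 132 otherwise). With the 7 arrays left out 1 was called in the response difference, beside 174 of all probesets. Quantile normalization called 17 members for the dose effect (11 otherwise), 14 on day 14 (6 otherwise), 8 in the response difference and 1 (Gpt) in controls over time (0 otherwise). Over all probesets it called 1654 (1684 otherwise), 1272 (467), 865 (132) and 57 (21) in these 4 comparisons, and it moved the median of all probesets to -0.18 on day 14 and to -0.24 in the response difference. The run as a block called 0 on day 1, 1 on day 7 (3 otherwise), 2 on day 14 and 0 in the response difference, beside 6, 13, 67 and 1 of all probesets (343, 269, 467 and 132 otherwise), while it multiplied the variance by 3.98, 3.52, 2 and 3.49. A stricter filter, with fewer probesets tested, called 1 at 50 ppm (Ddc, 0 otherwise) and 4 in the response difference, beside 20 and 189 of 11172 probesets. The mean of a gene's probesets called 1 at 50 ppm (Ddc), beside 18 of 9544 tested. The methods' 2-way analysis of variance called 6 for the dose effect, of 9 members that passed its fold filter, beside 749 of 2627 probesets that passed it. Without the arrays of run 1, 7 were called at 500 ppm over 4 days (11 otherwise), beside 444 of 12860 probesets (1088 of 12599 otherwise). Except where stated the cause was not tested.

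With each array left out in turn, 9 to 12 members were called for the dose effect, 8 to 12 at 1000 ppm and 9 to 11 at 500 ppm over 4 days, 0 to 1 at 50 ppm, and 0 between 1000 and 500 ppm. On single days at 1000 ppm, 1 to 3 were called on day 1, 3 to 5 on day 3, 2 to 4 on day 7 and 3 to 8 on day 14. The response difference had 1 to 3 and controls over time 0 to 1. The day 1 count was 1 without control replicate 2 or 3 or PB replicate 2 or 3, the day 3 count was 3 without PB replicate 3, and the day 14 count was 3 without PB replicate 3. Controls over time had 1 without control day 1 replicate 1. The 50 ppm count was 1 without control day 1 replicate 2, PB 50 ppm replicate 2 of day 1 or of day 14, or PB 1000 ppm day 7 replicate 2. The response difference had 1 without control replicates 2 or 3 of day 1 or 1 or 3 of day 14, or PB replicates 1 or 3 of day 1 or 2 or 3 of day 14.

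With the replicate block 12 members were called at 1000 ppm and 11 at 500 ppm over 4 days, 4, 5, 4 and 7 on days 1, 3, 7 and 14, 3 in the response difference and 12 for the dose effect, and no call was lost. Over all probesets the replicate block called 1852 at 1000 ppm and 1135 at 500 ppm over 4 days. By day it called 380, 620, 294 and 513, beside 160 in the response difference and 1776 for the dose effect.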
